A study of Mus musculus with 2 samples.

Results

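The genes described here are 9 that carry the first steps of the insulin signal, with a brake on it: the insulin receptor gene Insr, the receptor substrates Irs1 and Irs2, the phosphoinositide 3-kinase (PI3K) subunits Pik3ca and Pik3r1, the kinases Akt1, Akt2 and Gsk3b, and the adaptor Grb10. They were taken by gene symbol from the deposited tables, where all 9 were found among 35129 symbols. RNA was sequenced from C57BL/6 primary mouse hepatocytes that received either an adenovirus for expression of KLF14, a transcription factor of the zinc finger type (label Ad-KLF14), or a control adenovirus (Ad-GFP), whose label reads GFP while the series' design text speaks of an empty vector. Each group holds 1 table, treated here as 1 library. The same design text also speaks of triplicates and of retinal RNA, which conflicts with these labels, and whether a table merges several cultures is not given in the sources used here. The conditions could therefore not be tested against each other, and the differences given are those between 2 tables. Both groups carry an adenovirus, and uninfected cells were not analysed here. The age and sex of the mice, the dose of virus, the time after infection and any insulin in the medium are not given in the sources used here.

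When insulin binds its receptor, the receptor phosphorylates itself and the IRS scaffolds, which recruit PI3K through its regulatory subunit. The lipid made by the catalytic subunit brings Akt to the membrane, and Akt then acts on substrates such as the GSK3 kinases, which hold back glycogen synthase, and the FoxO factors, which drive gluconeogenic genes. In liver the pathway is known for turning glucose output off and lipid synthesis on after a meal, and IRS2 and AKT2 are the forms most often studied there. GRB10 binds the activated receptor and limits its signal.

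KLF factors bind GC-rich and CACCC sequences, so the promoter windows of the genes that lay farthest apart in each direction among those with a promoter entry are shown, namely Gsk3b and Grb10, which were lower with Ad-KLF14, and Irs2, which had the higher value there. Each window runs from 250 bases before to 50 after a start site, is written 5′ to 3′ on the strand of the gene and comes from RefSeq on GRCm38.p6. Capitals mark the GC box (GGGCGG, or CCGCCC on the other strand) and the CACCC box (CACCC, or GGGTG on the other strand), and overlapping matches run together. The windows are chr16:38088751-38089050 on the plus strand for Gsk3b, chr11:12037371-12037670 on the minus strand for Grb10 and chr8:11008880-11009179 on the minus strand for Irs2.
Gsk3b: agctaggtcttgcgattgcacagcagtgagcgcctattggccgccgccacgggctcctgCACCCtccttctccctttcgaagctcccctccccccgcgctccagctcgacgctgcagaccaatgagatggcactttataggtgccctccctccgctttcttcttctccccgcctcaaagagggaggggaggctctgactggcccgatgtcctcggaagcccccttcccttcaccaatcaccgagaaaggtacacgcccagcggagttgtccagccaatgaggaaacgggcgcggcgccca
Grb10: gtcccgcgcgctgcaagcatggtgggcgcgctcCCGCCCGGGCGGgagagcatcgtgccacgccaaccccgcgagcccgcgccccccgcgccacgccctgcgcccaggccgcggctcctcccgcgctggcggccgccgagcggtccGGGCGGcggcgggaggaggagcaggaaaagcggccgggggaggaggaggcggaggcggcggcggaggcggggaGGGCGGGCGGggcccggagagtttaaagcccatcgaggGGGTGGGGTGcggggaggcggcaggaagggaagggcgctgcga
Irs2: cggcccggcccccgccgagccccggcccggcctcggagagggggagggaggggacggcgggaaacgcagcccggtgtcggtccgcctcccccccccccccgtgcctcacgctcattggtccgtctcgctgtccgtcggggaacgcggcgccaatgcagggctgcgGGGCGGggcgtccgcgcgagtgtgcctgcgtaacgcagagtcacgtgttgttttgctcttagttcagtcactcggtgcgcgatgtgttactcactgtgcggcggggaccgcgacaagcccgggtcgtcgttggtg

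The Gsk3b window held 0 GC boxes and 1 CACCC box, the Grb10 window shown 5 GC and 2 CACCC boxes, and the Irs2 window 1 GC box and 0 CACCC boxes. Grb10 has 2 windows in the table, of which the one listed first is shown, and the other held 0 GC boxes and 3 CACCC boxes. Promoter entries were found for 8 of the 9 genes (not Insr), in 14 windows, since some genes have several start sites. A GC box stood in 7 of these 14 windows, against 35.7% of all 32851 windows in the table, and a CACCC box in 11 (78.6%), against 57.5% of all windows. Several windows of a gene were counted singly, and Akt2 had 4, each with a CACCC box, so these shares are not shares of genes. The forkhead sequence GTAAACA, or TGTTTAC on the other strand, stood in 1 of the 14, in a window of Akt1, against 3.65% of all windows. These matches describe letters and were not tied to binding in these cells.

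The Ad-KLF14 library held 11151711 reads and the Ad-GFP library 11311344, as recovered from the FPKM steps (FPKM scales the reads of a gene by the length of its model and by the library total). Klf14 itself stood at 13164 FPKM with Ad-KLF14 and 0.298 FPKM with Ad-GFP, which matches the labels, with reads from the insert of the virus counted in it. Hepatocyte markers were present, with all 12 at a mean of at least 1 FPKM. Both directions occurred, with albumin at 4172 FPKM with Ad-KLF14 and 5115 FPKM with Ad-GFP, and the hepatocyte transcription factor Cebpa at 73.9 FPKM with Ad-KLF14 and 36.5 FPKM with Ad-GFP. Of the marker lists of other cells, the macrophage genes summed to 424 FPKM with Ad-KLF14 and 445 FPKM with Ad-GFP (7 of 11 at a mean of at least 1 FPKM). The largest part of that sum was Cd14, at 217 FPKM with Ad-KLF14 and 306 FPKM with Ad-GFP. Within it, Cd68 was at 160.3 FPKM with Ad-KLF14 and 71.1 FPKM with Ad-GFP, and Mpeg1 at 17.1 FPKM with Ad-KLF14 and 40.1 FPKM with Ad-GFP. Some other macrophage markers were low. Csf1r was at 1.04 FPKM with Ad-KLF14 and 1.05 FPKM with Ad-GFP, and Clec4f at 0.411 FPKM with Ad-KLF14 and 0.332 FPKM with Ad-GFP. The endothelial genes summed to 12.0 FPKM with Ad-KLF14 and 16.7 FPKM with Ad-GFP (5 of 9), and the stellate and fibroblast genes to 11.4 FPKM with Ad-KLF14 and 16.0 FPKM with Ad-GFP (2 of 10). Single genes of both lists went either way. With Ad-KLF14 and Ad-GFP in turn, endothelial Oit3 was at 0.990 and 3.87 FPKM, and Pecam1 at 2.03 and 1.12 FPKM. In the stellate list, Ecm1 was at 4.67 and 12.2 FPKM, and Tagln at 5.43 and 2.81 FPKM, in the same order. Adipocyte genes stood at 0.313 FPKM with Ad-KLF14 and 0 with Ad-GFP, and the defining Adipoq, Lep and Cfd were at 0 in both libraries, as were the muscle genes Ckm, Tnnt3 and Myh4. The other muscle genes were low, with Mylpf at 1.31 FPKM with Ad-KLF14 and 0.703 FPKM with Ad-GFP, and Acta1 at 0.813 FPKM with Ad-KLF14 and 0.617 FPKM with Ad-GFP.

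None of the 9 genes was 2-fold apart on log2(FPKM + 1), the scale used for all counts. Genes were kept from a mean level of 1 FPKM on, 12419 in all, and of these 6.37% passed 2-fold upward with Ad-KLF14 and 8.99% downward. The kept genes include 8 of the 9, all but Irs1. Akt1, Akt2, Gsk3b and Grb10 were at least 1.5-fold lower, a fold chosen after the values were seen, which 20.9% of all 12419 genes also were, while 0 members were at least 1.5-fold higher, against 16.7% of all genes. Pik3r1 and Pik3ca were lower by less, Insr was higher, and the counting intervals of Irs2 and Irs1 held a ratio of 1. In all, the 95% counting interval of the ratio lay below 1 in 6 of the 9 genes and above 1 in 1, against 39.2% below and 33.9% above among the 9252 kept genes whose reads could be recovered. At this depth the interval of most genes leaves out 1 (73.2%), so such an interval sets aside counting error and says nothing of differences between cultures.

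**Figure D1:**
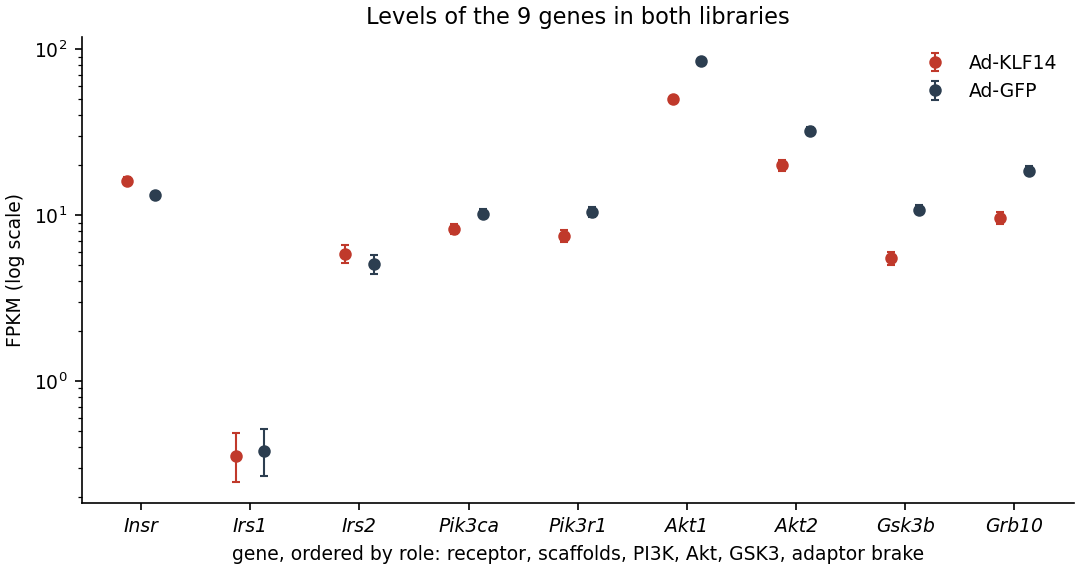
Levels of the 9 genes in FPKM on a log axis, Ad-KLF14 (red, left of each pair) and Ad-GFP (dark, right), with 95% exact Poisson counting intervals, 1 library each. Akt1 is highest in both libraries, at 49.8 FPKM with Ad-KLF14 and 85.1 FPKM with Ad-GFP, and Irs1 lowest, at 0.352 FPKM with Ad-KLF14 and 0.376 FPKM with Ad-GFP.

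Insr, the receptor itself, stood at 16.1 FPKM with Ad-KLF14 from 1676 reads (95% Poisson counting interval 15.3 to 16.9) and at 13.1 FPKM with Ad-GFP from 1387 reads (12.4 to 13.8). The level was 1.23-fold higher with Ad-KLF14 (exact Clopper-Pearson counting interval 1.14 to 1.32), and the intervals of both libraries did not overlap. On log2(FPKM + 1) the difference was 0.27, and 31.7% of all genes kept had a higher log2 ratio, sign included. Over all genes kept, 6.37% passed 2-fold upward on this scale and 8.99% downward. Among other receptors and ligands that were kept, none was 2-fold apart. Met, the receptor of hepatocyte growth factor, had the largest difference of those on log2(FPKM + 1), at 17.6 FPKM with Ad-KLF14 and 34.2 FPKM with Ad-GFP, followed by Igf1, the liver-made growth factor, at 8.32 FPKM with Ad-KLF14 and 16.4 FPKM with Ad-GFP. Igf1r, the closest relative of the insulin receptor, was at 0.606 FPKM with Ad-KLF14 and 0.321 FPKM with Ad-GFP, so receptor transcripts of this family were nearly all Insr in both libraries. The ligand gene Igf2, also not kept, was at 0.711 FPKM with Ad-KLF14 from 32 reads and 0.153 FPKM with Ad-GFP from 7 reads, a ratio of 4.64 (2.01 to 12.4). Insrr, Ins1 and Ins2 were listed at 0.

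Irs2, the scaffold that carries most of the hepatic insulin signal in mouse studies of fasting, was at 5.85 FPKM with Ad-KLF14 from 262 reads (5.16 to 6.6) and at 5.04 FPKM with Ad-GFP from 229 reads (4.41 to 5.74). The ratio of 1.16 had a counting interval of 0.968 to 1.39, so no difference could be detected with this number of reads. Irs1, the scaffold that dominates in muscle and fat, was at 0.352 FPKM with Ad-KLF14 from 36 reads and at 0.376 FPKM with Ad-GFP from 39 reads, under the limit of 1 FPKM set for the counts. Its ratio of 0.936 had the widest interval of the 9 genes, 0.578 to 1.51. Irs2 made up 94.3% of the summed Irs1 and Irs2 level with Ad-KLF14 and 93.1% with Ad-GFP, and Irs3 and Irs4 were listed at 0. In the GENCODE M21 basic annotation on GRCm38, 30.9% of the exon bases of Irs1 overlap Gm9747 on the other strand, and 2.56% of those of Irs2 overlap 9530052E02Rik. The gene models behind the deposited values are not given, so their overlap could not be checked. Whether reads were counted by strand is not given in the sources used here, so reads of such partners could not be told apart. Over all genes kept, 6.37% passed 2-fold upward and 8.99% downward. Of the other adaptors, 0 of 14 kept genes were 2-fold apart in either direction on log2(FPKM + 1). The largest differences there were those of Dok1, a docking protein, at 1.74 FPKM with Ad-KLF14 and 3.87 FPKM with Ad-GFP (2.23-fold lower in FPKM alone, interval 1.48 to 3.41), and Crk, an SH2 and SH3 adaptor, at 56.4 FPKM with Ad-KLF14 and 85.8 FPKM with Ad-GFP.

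Pik3ca, which encodes the catalytic subunit p110 alpha, was at 8.24 FPKM with Ad-KLF14 from 819 reads (7.68 to 8.82) and at 10.2 FPKM with Ad-GFP from 1028 reads (9.58 to 10.8). It was 1.24-fold lower with Ad-KLF14 (interval 1.13 to 1.36). Pik3r1, the gene of the p85 alpha regulatory subunit, was at 7.46 FPKM with Ad-KLF14 from 575 reads (6.86 to 8.09) and at 10.5 FPKM with Ad-GFP from 818 reads (9.75 to 11.2), 1.40-fold lower (interval 1.26 to 1.56). Both genes had close to the same level per length, with a Pik3r1 to Pik3ca ratio of 0.905 with Ad-KLF14 and 1.03 with Ad-GFP, and the change of that ratio, 0.882, had an interval of 0.765 to 1.02 that holds 1. This pair is 1 of 11 compared within the libraries, by exact conditional intervals of the odds ratio of reads that are not adjusted for their number. Such a ratio does not depend on how the libraries are scaled to each other.

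Some relatives of both PI3K members differed more than the members, and others less. Pik3cb, the catalytic p110 beta, was at 32.2 FPKM with Ad-KLF14 and 16.6 FPKM with Ad-GFP, a ratio of 1.93, for which no interval is given because its reads could not be recovered. The summed level of class I catalytic genes was 40.9 FPKM with Ad-KLF14 and 27.2 FPKM with Ad-GFP, and the share of Pik3ca in it was 20.2% with Ad-KLF14 and 37.4% with Ad-GFP. The leukocyte forms Pik3cd and Pik3cg were below 1 FPKM in both libraries. Pik3cd was at 0.353 FPKM with Ad-KLF14 and 0.330 FPKM with Ad-GFP, and Pik3cg at 0.105 FPKM with Ad-KLF14 and 0.0909 FPKM with Ad-GFP. Among regulatory genes, Pik3r2 (p85 beta) was at 8.09 FPKM with Ad-KLF14 and 18.9 FPKM with Ad-GFP, and Pik3r3 (p55 gamma) at 2.96 FPKM with Ad-KLF14 and 0.371 FPKM with Ad-GFP. Pik3r3 was 7.97-fold higher with Ad-KLF14 (interval 3.62 to 20.7), from at least 55 reads with Ad-KLF14 and 7 with Ad-GFP, and Pik3r2 was 2.33-fold lower (1.83 to 3.0), where the read numbers are lower limits and the intervals may be too wide. Together the regulatory genes summed to 18.5 FPKM with Ad-KLF14 and 29.7 FPKM with Ad-GFP, a ratio of 0.623, against a ratio of 1.5 for the catalytic sum. Pik3r1 was 40.3% of the regulatory sum with Ad-KLF14 and 35.2% with Ad-GFP, while the share of Pik3r3 was 16.0% with Ad-KLF14 and 1.25% with Ad-GFP. Pik3r3 and Pik3r2 were the 2 genes past 2-fold, 1 in each direction, among the 7 kept PI3K genes outside the members. Of all genes kept, 6.37% passed 2-fold upward and 8.99% downward.

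**Figure D2:**
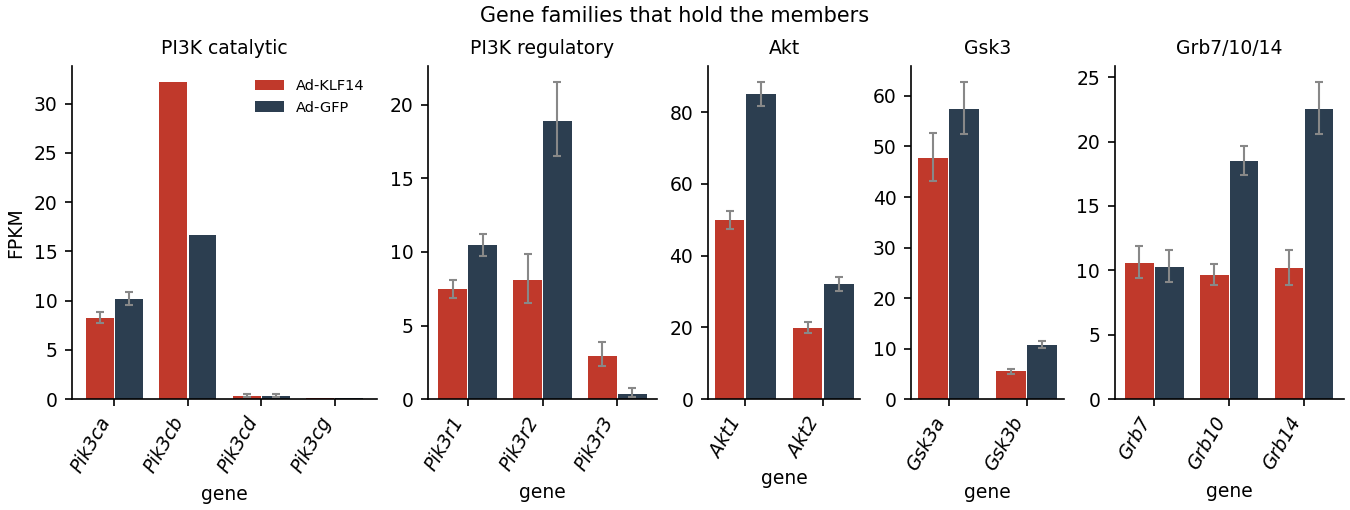
FPKM of members and related genes, Ad-KLF14 (red, left bar) and Ad-GFP (dark, right bar), 1 library each, with 95% exact Poisson counting intervals where reads could be recovered and lower-limit reads used where several numbers fit. Pik3cb is higher with Ad-KLF14 (32.2 against 16.6 FPKM), and Pik3r2, Akt1, Akt2, Gsk3b, Grb10 and Grb14 are lower.

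Akt1 was the most abundant of the 9 genes in both libraries. It stood at 49.8 FPKM with Ad-KLF14 from 1495 reads (47.3 to 52.4) and at 85.1 FPKM with Ad-GFP from 2588 reads (81.8 to 88.4). Its level was 1.71-fold lower with Ad-KLF14 (interval 1.60 to 1.82), and 14.9% of all genes kept had a lower log2 ratio. Akt2, the form best known for metabolic control in liver, was at 19.9 FPKM with Ad-KLF14 from 702 reads (18.5 to 21.4) and at 32.0 FPKM with Ad-GFP from 1146 reads (30.2 to 33.9), 1.61-fold lower (1.46 to 1.77). The ratio of Akt1 to Akt2 was 2.50 with Ad-KLF14 and 2.66 with Ad-GFP, and its change of 0.943 had an interval of 0.841 to 1.06, so both differed by amounts that counting error does not separate. Akt1 and Akt2 summed to 69.7 FPKM with Ad-KLF14 and 117 FPKM with Ad-GFP, a ratio of 0.596, and the share of Akt1 was 71.5% with Ad-KLF14 and 72.6% with Ad-GFP. The group has 9 kept genes outside the members, which comprise kinases and subunits of the mTOR complexes. Of these, 1 was at least 2-fold higher and 0 were at least 2-fold lower, against 6.37% and 8.99% of all genes kept. The higher gene was Sgk1, a kinase related to Akt that is induced by serum and glucocorticoids. It was at 18.3 FPKM with Ad-KLF14 and 6.40 FPKM with Ad-GFP (2.86-fold, 2.45 to 3.34).

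Gsk3b, the beta form of the Akt substrate that phosphorylates glycogen synthase, was at 5.48 FPKM with Ad-KLF14 from 507 reads (5.01 to 5.98) and at 10.7 FPKM with Ad-GFP from 1007 reads (10.1 to 11.4). This was the largest ratio of levels among the 9 genes, 1.96-fold lower with Ad-KLF14 (interval 1.76 to 2.18, which overlaps that of Grb10). On log2(FPKM + 1) the difference was −0.86, and 12.2% of all genes kept lay lower. Gsk3a, the alpha form, was the more abundant and lay closer together, at 47.8 FPKM with Ad-KLF14 and 57.4 FPKM with Ad-GFP. The ratio of Gsk3b to Gsk3a was 0.115 with Ad-KLF14 and 0.187 with Ad-GFP, a change of 0.614 (0.516 to 0.730), so within the libraries both forms were unequally lower. The Gsk3a reads are lower limits, so this interval may be too wide. Gsk3b made up 10.3% of the summed GSK3 level with Ad-KLF14 and 15.7% with Ad-GFP.

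Of the 22 other substrates and downstream genes, all kept, 3 passed 2-fold upward and 1 downward, against 6.37% and 8.99% of all genes kept. Tsc2, which restrains mTORC1 until Akt phosphorylates it, was at 25.3 FPKM with Ad-KLF14 and 11.2 FPKM with Ad-GFP. Rps6kb2, an S6 kinase of the mTORC1 branch, was at 14.4 FPKM with Ad-KLF14 and 6.17 FPKM with Ad-GFP. Foxo6, a FoxO factor, was at 3.12 FPKM with Ad-KLF14 and 0.455 FPKM with Ad-GFP, from 88 reads with Ad-KLF14 and 13 with Ad-GFP. The lower gene was Eif4ebp1, the translation repressor that mTORC1 inactivates, at 112 FPKM with Ad-KLF14 and 245 FPKM with Ad-GFP. The median log2 ratio of these 22 genes was 0.23, on the other side of 0 from Gsk3b, beside −0.03 over all genes kept.

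Grb10, the adaptor that binds the receptor and limits its signal, and an imprinted gene, was at 9.62 FPKM with Ad-KLF14 from 546 reads (8.83 to 10.5) and at 18.5 FPKM with Ad-GFP from 1066 reads (17.4 to 19.7). It was 1.92-fold lower with Ad-KLF14 (interval 1.73 to 2.14), and its log2 difference of −0.88 was the largest of the 9 on log2(FPKM + 1), with 11.6% of all genes kept lower. Grb14, its close relative with the same role at the receptor, was at 10.2 FPKM with Ad-KLF14 and 22.6 FPKM with Ad-GFP, 2.22-fold lower (1.89 to 2.61). The change of the Grb14 to Grb10 ratio, 0.867, had an interval of 0.715 to 1.05. Grb7, the third of the family, was at 10.6 FPKM with Ad-KLF14 and 10.3 FPKM with Ad-GFP, with an interval of the ratio of 0.869 to 1.22. The family sum was 30.4 FPKM with Ad-KLF14 and 51.4 FPKM with Ad-GFP, a ratio of 0.591.

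Receptor and adaptor brake were apart in opposite directions. The ratio of Insr to Grb10 was 1.67 with Ad-KLF14 and 0.708 with Ad-GFP, a change of 2.36 (2.08 to 2.68), and that of Insr to Akt1 was 0.322 with Ad-KLF14 and 0.154 with Ad-GFP, a change of 2.09 (1.90 to 2.3). Another brake went the way of the receptor. Ptpn1, the gene of the phosphatase PTP1B that removes phosphate from the insulin receptor, was at 33.8 FPKM with Ad-KLF14 from 1588 reads and at 14.4 FPKM with Ad-GFP from 686 reads, 2.35-fold higher (2.15 to 2.57). The ratio of Ptpn1 to Grb10 was 3.51 with Ad-KLF14 and 0.777 with Ad-GFP, a change of 4.52 (3.93 to 5.19). Of the 30 kept brakes outside the members, 1 passed 2-fold upward and 3 downward, against 6.37% and 8.99% of all genes kept. The median log2 ratio of these brakes was −0.11, beside −0.03 over all genes kept. The lower ones were Grb14, Trib3, a pseudokinase that binds Akt (20.6 FPKM with Ad-KLF14 and 58.4 FPKM with Ad-GFP), and Ppp2r2a, a regulatory subunit of the phosphatase PP2A (31.2 FPKM with Ad-KLF14 and 64.7 FPKM with Ad-GFP). Ppp2r2a lay just past 2-fold and was no longer called with trimmed mean scaling or with Klf14 reads left out of the total.

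**Figure D3:**
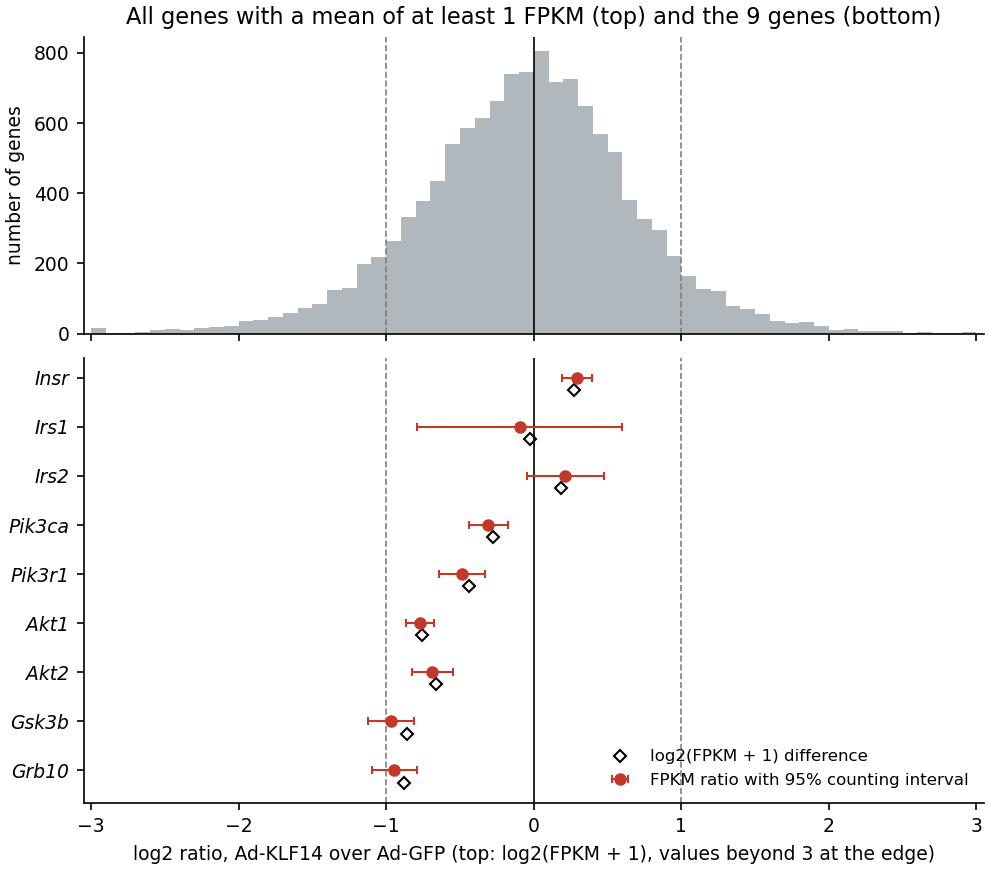
Top, number of genes by log2 ratio (Ad-KLF14 over Ad-GFP) for 12419 genes; bottom, the FPKM ratio of each of the 9 genes with its 95% exact Clopper-Pearson counting interval (red) and the difference on log2(FPKM + 1) (open diamonds). Dashed lines mark 2-fold, which none of the 9 genes passed, and the intervals of Irs1 and Irs2 hold 0 on this axis.

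Ordered by level per length with Ad-KLF14, the genes ran Akt1, Akt2, Insr, Grb10, Pik3ca, Pik3r1, Irs2, Gsk3b and Irs1. With Ad-GFP the order was Akt1, Akt2, Grb10, Insr, Gsk3b, Pik3r1, Pik3ca, Irs2 and Irs1. Neighbours whose counting intervals overlapped were Pik3ca with Pik3r1 and Irs2 with Gsk3b in the Ad-KLF14 library, and Gsk3b with Pik3r1 and Pik3r1 with Pik3ca in the Ad-GFP library. Insr stood above Grb10 with Ad-KLF14 and below it with Ad-GFP, and neither pair of intervals overlapped.

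Taking the 87 kept pathway genes other than the 9, 6 passed 2-fold upward with Ad-KLF14 and 5 downward, against 6.37% and 8.99% of all genes kept. The median log2 ratio of these 87 genes, −0.08, lay close to that of all genes kept, −0.03. Transcripts known to answer to the pathway went both ways. Of 15 kept FoxO1 targets outside the members, 2 passed 2-fold upward and 1 downward. The median log2 ratio of these targets was 0.26, beside −0.03 over all genes kept. Txnip, an arrestin-like protein that curbs glucose uptake, was at 77.1 FPKM with Ad-KLF14 and 20.7 FPKM with Ad-GFP, and Ppargc1a, the coactivator of gluconeogenesis, at 2.58 FPKM with Ad-KLF14 and 0.558 FPKM with Ad-GFP. Cited2, a transcriptional coregulator, was at 68.2 FPKM with Ad-KLF14 and 151.8 FPKM with Ad-GFP. Of the 15 targets, 10 had a log2 ratio above 0 and 5 below, against 5999 above and 6420 below among the 12419 genes kept. Igfbp1, under 2-fold apart, was at 91.6 FPKM with Ad-KLF14 and 176 FPKM with Ad-GFP. The targets Pck1 and G6pc were not kept. Pck1 was at 0.480 FPKM with Ad-KLF14 from 14 reads and 0.642 FPKM with Ad-GFP from 19 reads. G6pc was at 0.479 FPKM with Ad-KLF14 from 12 reads and 0.158 FPKM with Ad-GFP from 4 reads. The counting intervals of their ratios, 0.347 to 1.57 for Pck1 and 0.922 to 12.9 for G6pc, both held 1. Of 14 kept lipogenic genes that insulin induces, Fasn, the fatty acid synthase gene, was the 1 at least 2-fold higher, at 35.7 FPKM with Ad-KLF14 and 15.4 FPKM with Ad-GFP, and 0 were at least 2-fold lower. Their median was 0.06.

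**Figure D4:**
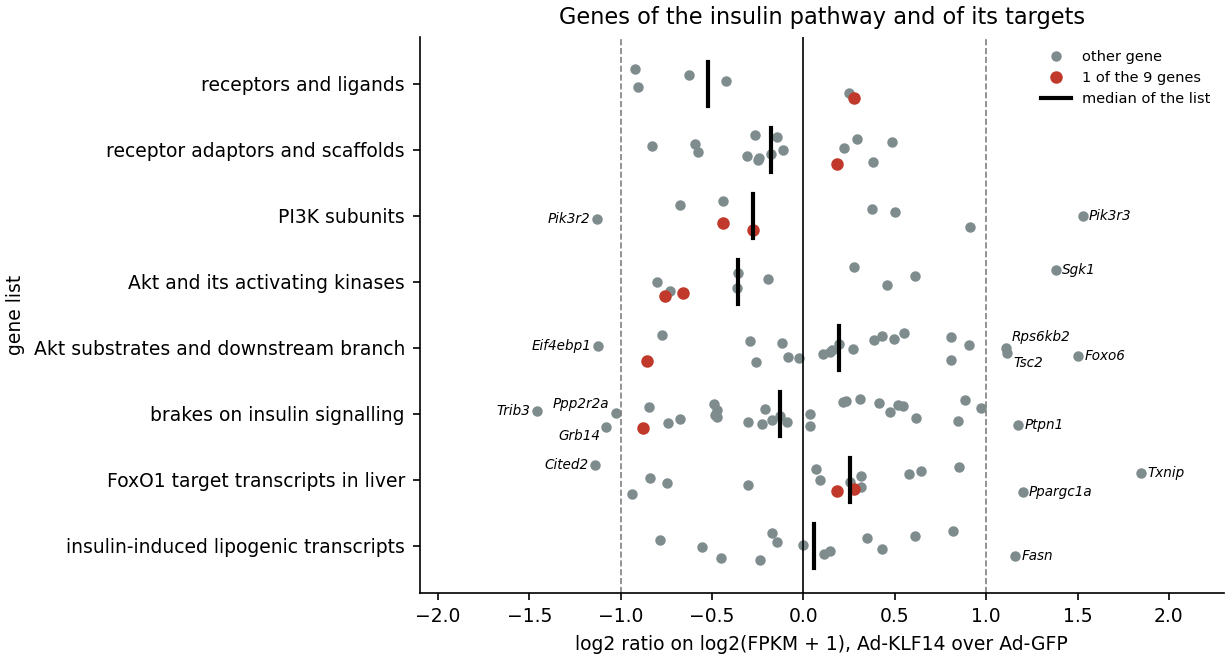
Log2 ratio on log2(FPKM + 1), Ad-KLF14 over Ad-GFP, of each kept gene in 8 lists of pathway and target genes, with the 9 genes in red, other genes in grey and the median over all kept genes of the list, members included, as a black bar. Genes past the dashed 2-fold lines are named, among them Pik3r3, Foxo6 and Txnip on the higher side and Trib3, Pik3r2 and Grb14 on the lower side.

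Markers of bile duct cells, another epithelial cell of the liver, were lower with Ad-KLF14 in the same libraries, summing to 247 FPKM with Ad-KLF14 and 806 FPKM with Ad-GFP, of which Spp1 was 191 FPKM with Ad-KLF14 and 681 FPKM with Ad-GFP. Of 7 such markers 4 were kept, 2 of them at least 2-fold lower, against 8.99% of all genes kept, and Krt7 was at 0 in both libraries. Their part in the lower values of Akt1, Akt2, Gsk3b and Grb10 was not tested. In bulk samples, fewer cells of a type and less RNA per cell cannot be told apart.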

How the data were processed

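Per the labels' protocols, hepatocyte RNA was extracted with Trizol, and an Illumina TruSeq kit served for the libraries. Bowtie 0.12.2 and mm8 are named, per the submitters' processing notes; gene models, the counting rule and the pooling of cultures are not given in the sources used here. The authors deposited 1 table of FPKM values per library.

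Reads were recovered from the FPKM steps. In all 16944 genes above 0 in both libraries the FPKM ratio was a ratio of whole numbers times 1 constant (relative tolerance 1e-11), and common divisors gave the totals. With these totals, the implied length equalled a GENCODE M21 transcript length in 12.4% of 7083 genes, against at most 1.76% with totals changed 2-fold or 3-fold either way. Read numbers were accepted where the implied length was whole and at most 5% above the longest transcript. All 9 members had 1 such solution, 3 of them equal to a transcript, and 6892 of the 12419 kept genes had 1 (2360 had several, and the smallest was used as a lower limit). In 1388 kept genes no solution was found. The remaining kept genes were at 0 in a library or had no reference length under their symbol. No interval is given for any of these genes. Reads shared between genes were not modelled. In a simulation of 25678 genes without shared reads, both totals and 99.96% of the numbers with 1 solution were exact. Of 5228 intervals, 95.7% held the true ratio. The simulated lengths came from the same GENCODE M21 transcripts that set the length limit, and the counts were Poisson. The simulation therefore checks the arithmetic only, and cannot show that the real read numbers are right, since the real gene models are not given.

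Log2 ratios use log2(FPKM + 1), which understates low genes, and genes were kept from a mean of 1 FPKM on. Ratios of named genes use FPKM alone. Intervals (95%, Clopper-Pearson or Poisson, SciPy 1.17.1) cover counting error only. The 9 genes and all lists were chosen with earlier results of these data known. Named were the members, their families, all other pathway genes past 2-fold, or else the 2 largest of a list, and Klf14 and Alb. Igf1r, Igf2, Insrr, Ins1, Ins2, Socs3, Igfbp1, Pck1, G6pc and single marker genes were added after their values were seen. Some genes of the lists are not reported here and were left out of them. Alternatives were pseudocounts of 0.1 and 5 FPKM, 3 scalings, and filters of none and 5 FPKM.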

Additional observations from a re-analysis of the deposited data

How the results depend on the processing

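No paired analysis was possible because each group holds 1 table, so no library could be left out, and any cultures merged in a table could not be separated. No member reached 2-fold under any pseudocount or scaling tried, and the 1.5-fold limit, added after the values were seen, gave 4 lower members. The scalings multiplied the Ad-KLF14 values by 1.02 to 1.03, and each member kept its sign under them. With a pseudocount of 5 FPKM, the log2 ratio of Gsk3b was −0.59 and that of Grb10 −0.69, and 295 genes in all were at least 2-fold higher and 467 lower. The same pseudocount left 2 higher and 2 lower pathway genes outside the members, 0 higher and 0 lower PI3K genes, 0 higher substrates, 1 lower brake, 1 higher FoxO1 target and 0 higher lipogenic genes. With the members included, its medians were −0.42 for the receptor list and −0.12 for the Akt kinase list, against −0.52 and −0.36 in the main setting. With a pseudocount of 0.1 FPKM, 1 adaptor was lower and 2 brakes higher. Trimmed mean scaling and Klf14 reads left out of the total each gave 2 higher brakes (Socs3 added) and 2 lower ones (Ppp2r2a lost), and 7 higher and 4 lower pathway genes outside the members. Without a filter on low values, the medians with the members included were −0.087 for receptors and −0.039 for PI3K genes, against −0.52 and −0.28 in the main setting. Without the members, the main medians were −0.63 for receptors and 0.37 for PI3K genes. With genes kept from a mean of 5 FPKM on, 0 PI3K genes and 1 FoxO1 target were higher. Causes were by construction: a larger pseudocount shrinks low genes and a smaller one does the reverse, and filters change the genes counted. The scalings shift all Ad-KLF14 values alike, which moved genes that lay close to 2-fold. Depth limits Irs1 most, at 36 and 39 reads.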

Other observations

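A few further pathway genes, chosen after their values were seen, lay under 2-fold apart. Foxo1, the FoxO factor that Akt keeps out of the nucleus in liver, was at 16.9 FPKM with Ad-KLF14 and 9.22 FPKM with Ad-GFP (1.83-fold higher, counting interval 1.66 to 2.03). Pdpk1, the kinase that phosphorylates the activation loop of Akt, was at 7.86 FPKM with Ad-KLF14 and 13.7 FPKM with Ad-GFP. Within mTORC2, the complex that phosphorylates the tail of Akt, Mapkap1 was at 9.39 FPKM with Ad-KLF14 and 17.1 FPKM with Ad-GFP, while Rictor was at 12.4 FPKM with Ad-KLF14 and 8.73 FPKM with Ad-GFP. Inpp5k, an inositol lipid phosphatase, was at 19.6 FPKM with Ad-KLF14 and 10.4 FPKM with Ad-GFP, and Pde3b, the phosphodiesterase that insulin activates, at 30.7 FPKM with Ad-KLF14 and 17.1 FPKM with Ad-GFP.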
